A study of Homo sapiens with 2 samples.

Results

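The MYC, MAX and MXD network is a set of 10 genes for basic helix-loop-helix leucine zipper proteins: MYC, its partner MAX, the antagonists MXD1, MXI1, MXD3, MXD4, MNT and MGA, and the related pair MLX and MLXIP. Its members were chosen by name, and every probe set that the platform annotation assigns to one of them was used, which gave 30 of the 54675 probe sets on the array. Expression was measured in HT-29, a human colorectal adenocarcinoma cell line. The spheroid sample (1 array) came from monolayer cells moved to low-adhesion plates and kept for 5 days in stem cell media, a DMEM:F12 medium supplemented with the growth factors EGF and FGF and with B27. The monolayer sample (1 array) was kept on treated plates in DMEM/F-12 with 10% fetal bovine serum, and both media held the same antibiotic mixture. Growth form and medium changed together and cannot be told apart. In the study the spheroids stand for cultures enriched in cancer stem cells, the monolayer is the control, and C-MYC serves as a self-renewal factor.

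MAX is the common partner of this network. MYC binds DNA as a dimer with MAX at E-boxes, of which CACGTG is the canonical form, and activates genes of growth and metabolism there. MXD1, MXI1, MXD3, MXD4 and MNT also pair with MAX at E-boxes, where they recruit the SIN3 corepressor, and MGA, a very large MAX-binding protein, belongs to a Polycomb complex called PRC1.6. MLX pairs with MLXIP, known as MondoA, in a parallel arm that responds to glucose. In the intestine MYC is a target of Wnt signalling and is high in dividing crypt cells, and MXD1 is known for its rise as epithelial cells differentiate.

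The values are MAS5 signals, intensities on a linear scale, and a difference is the log2 signal in spheroids minus that in monolayer. Signals below 62.7, the middle value of both arrays together, were raised to that floor. Each gene is represented by its brightest probe set, and it counted as measured when that one exceeded the floor on 1 or both arrays. There was 1 array per condition, so the differences have no replicate check, no test was run, and the number of arrays limits the precision. In bulk RNA, fewer cells with a transcript and less of it per cell cannot be told apart. The spread between probe sets of the same gene, an SD of 0.41 in log2 difference over 5506 genes, is given as the nearest measure of error. It comes from the same RNA on the same arrays and holds no variation between cultures or arrays, so it can understate the error. The 3'/5' signal ratio of GAPDH, a measure of RNA integrity, was 1.07 in spheroids and 1.05 in monolayer, and that of ACTB was 3.65 in spheroids and 4.07 in monolayer. Of 10 markers of colon epithelium, the epithelial genes EPCAM, CDH1, KRT8, KRT18 and KRT19 were above the floor on both arrays. The intestinal genes CDX1, CDH17 and LGALS4 were below the floor on both, CDX2 was at 80.0 in spheroids and 55.9 in monolayer, and VIL1 at 27.2 in spheroids and 100.5 in monolayer. The defining intestinal markers of the labelled tissue were thus largely absent from both arrays. Of 9 markers of other cell types with a probe set of their own, 2 were above the floor, COL1A1 at 1972 in spheroids and 1370 in monolayer, and PECAM1 near the floor.

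The E-box is the sequence that dimers of this network share, so it was looked for in the 250 bases before each gene start in RefSeq promoters of GRCh38.p14. CACGTG, which reads the same on both strands, was in the window of 7.73% of 27305 genes. It was in those of 3 of the 9 members with a promoter in the table, MXD4, MNT and MLX, and not in those of MAX, MXD1, MXD3, MXI1, MGA or MLXIP. Of 28 MYC-induced target genes with a promoter 9 held it, and of 5 genes listed as Mondo and MLX targets 4 did. Both lists were drawn from known targets, for which E-boxes are part of the evidence, so these shares are a description. The windows of 30 bases around it are shown for the 3 members and for ODC1, CDK4, LDHA, HK2, PFKFB3 and ARRDC4, target genes whose levels are given further on, 5′ to 3′ on the strand of the gene with the E-box in capitals. They lie at chr4:2262330-2262359 (MXD4, minus strand), chr17:2401236-2401265 (MNT, minus), chr17:42567038-42567067 (MLX, plus), chr2:10448024-10448053 (ODC1, minus), chr12:57752394-57752423 (CDK4, minus), chr11:18394464-18394493 (LDHA, plus), chr2:74835009-74835038 (HK2, plus), chr10:6202812-6202841 (PFKFB3, plus) and chr15:97960481-97960510 (ARRDC4, plus).
MXD4: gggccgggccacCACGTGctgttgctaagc
MNT: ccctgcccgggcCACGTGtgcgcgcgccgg
MLX: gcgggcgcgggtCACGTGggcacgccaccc
ODC1: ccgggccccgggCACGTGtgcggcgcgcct
CDK4: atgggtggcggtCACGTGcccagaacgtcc
LDHA: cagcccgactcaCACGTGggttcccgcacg
HK2: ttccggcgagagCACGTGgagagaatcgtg
PFKFB3: caccctcctcccCACGTGgaagggggctgg
ARRDC4: aaacggcctgtgCACGTGcacgccggagcc

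MYC, the activator of the network, was lower in HT-29 spheroids. Its single probe set had a signal of 9146 in spheroids, against 14413 in monolayer. The log2 difference was -0.66, or 1.58-fold lower, which is short of the 2-fold threshold of the study's methods. Of 13183 measured genes 9.28% had a lower difference than MYC. Among the 4395 genes with the highest mean signal, to which MYC belongs, 3.78% did. With 1 probe set MYC has no second reading on these arrays. MAX, which every dimer of MYC and of the MXD proteins needs, had a signal of 1929 in spheroids and 2142 in monolayer by its brightest probe set, a log2 difference of -0.15. The other 4 probe sets of MAX gave log2 differences from -0.25 to 0.60. The 2 above 0 are dimmer, with signals of 132.1 and 242.7 in spheroids against 87.0 and 195.1 in monolayer, and both are of the x_at kind, whose probes can also match other transcripts. The direction of MAX was therefore not the same across its probe sets, and its brightest reading lay within the spread between probe sets.

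**Figure D1:**
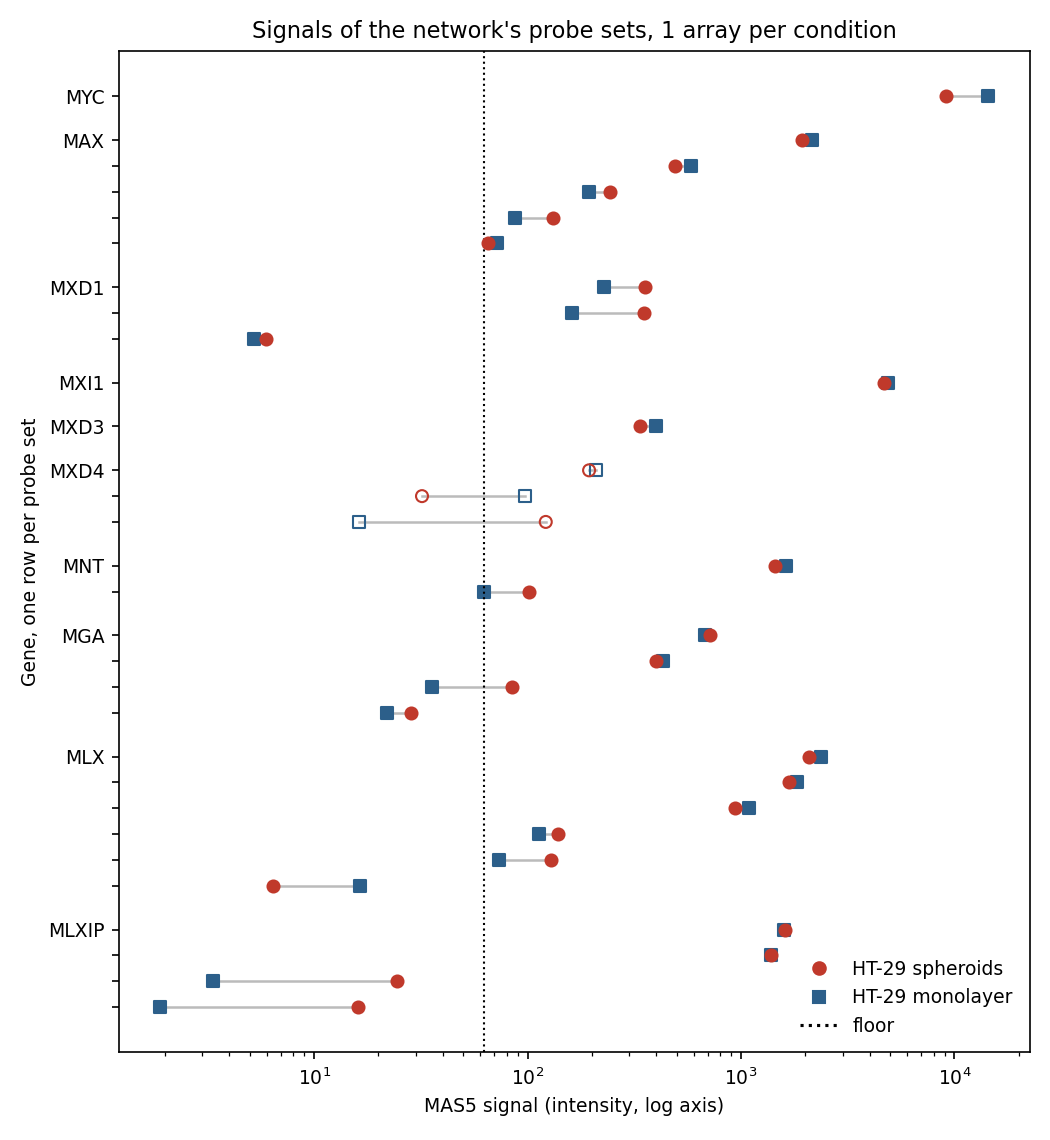
MAS5 signal on a log axis for each of the 30 probe sets of the network, in HT-29 spheroids (red circles) and monolayer (blue squares), 1 array each. Open symbols are the 3 probe sets that MXD4 shares with a microRNA gene, and the dotted line is the floor of 62.7. MYC has its spheroid signal of 9146 to the left of the monolayer signal of 14413, and both MXD1 probe sets above the floor have the spheroid signal to the right.

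Among the antagonists MXD1 had the largest difference, and it ran opposite to that of MYC. MXD1, the founding MXD repressor, had a signal of 354.5 in spheroids and 227.7 in monolayer by its brightest probe set, a log2 difference of 0.64 or 1.56-fold higher. A second probe set with nearly the same spheroid signal gave 351.4 in spheroids and 161.2 in monolayer, a log2 difference of 1.12 or 2.18-fold higher. The dimmest was at 5.98 in spheroids and 5.21 in monolayer, under the floor on both arrays. Both readings above the floor were higher in spheroids, and 7.96% of all measured genes had a higher difference than the first of them. MXD1 was the member for which the choice of probe set decided whether 2-fold was passed.
By their brightest probe sets, the other measured antagonists differed by less than the SD of 0.41 between probe sets. MXI1, a repressor that hypoxia is known to induce, was at 4670 in spheroids and 4863 in monolayer, a log2 difference of -0.06. Of the 8 measured genes in a list of hypoxia-induced genes, 5 were at least 2-fold higher in spheroids and 0 lower. Over all measured genes these shares were 2.53% and 3.08%. Of the 5, ANKRD37, a HIF target, was at 13627 in spheroids and 2289 in monolayer. The log2 differences of the other 4 were 2.47 for ANGPTL4, 1.95 for the peptide hormone gene ADM, 1.36 for the angiogenic factor gene VEGFA and 1.02 for PDK1, a kinase that restrains pyruvate oxidation. The rest of the list was near level by its brightest probe sets, with EGLN3 at 0.15, BNIP3 at 0.14 and SLC2A1 at 0.08. Second probe sets gave 0.38 for EGLN3, -0.33 for BNIP3 and -0.68 for SLC2A1. MXI1 was thus nearly level on arrays where 5 of these 8 genes were at least 2-fold higher. The list was chosen with earlier results of these data known, and a link to MXI1 was not tested. MXD3, known from dividing cells, was at 337.6 in spheroids and 399.3 in monolayer (log2 difference -0.24). MNT, the broadly expressed antagonist of MYC, was at 1442 in spheroids and 1624 in monolayer (log2 difference -0.17). A dim second probe set of MNT was at 101.9 in spheroids and 62.3 in monolayer, under the floor, which makes it at least 1.63-fold higher in spheroids and opposite to the first. With a floor of 89.2, taken from olfactory receptor probe sets, this bound was 1.14-fold. MGA, the Polycomb-linked repressor, was at 712.0 in spheroids and 678.3 in monolayer (log2 difference 0.07), and its second probe set above the floor gave -0.11. A further probe set of MGA was at 84.8 in spheroids and 35.7 in monolayer, at least 1.35-fold higher but below the floor of 89.2 on both arrays, and its dimmest was under the floor on both arrays.

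MXD4 has no probe set that the annotation assigns to it alone, and how much of the shared signals comes from MXD4 was not tested. All 3 of its probe sets are also assigned to MIR4800, a microRNA gene that lies inside MXD4 on the same strand, at chr4:2250077-2250156 (minus strand, GRCh38.p14). They were left out of the counts of measured members. The mature microRNA is shown as the second gene that these probe sets name, with its seed, bases 2 to 8, in capitals.
hsa-miR-4800-3p: cAUCCGUCcgucuguccac
The brightest of the 3 shared probe sets was at 194.2 in spheroids and 210.2 in monolayer, a log2 difference of -0.11. The others were at 121.7 in spheroids and 16.3 in monolayer, and at 32.0 in spheroids and 97.2 in monolayer, each above the floor on 1 array only. They point in opposite directions, so no direction is given for MXD4.

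In the Mondo arm both genes were close to level. MLX was at 2071 in spheroids and 2379 in monolayer by its brightest probe set, a log2 difference of -0.20. The next 2 probe sets of MLX gave -0.11 and -0.21, while 2 dimmer ones, at 139.4 and 128.4 in spheroids against 113.6 and 73.9 in monolayer, gave 0.30 and 0.80. MLXIP was at 1604 in spheroids and 1583 in monolayer by one probe set and 1385 in spheroids and 1383 in monolayer by another, log2 differences of 0.02 and 0.00. These were the closest readings of any member with more than 1 reading above the floor. One further probe set of MLX and 2 of MLXIP were under the floor on both arrays.

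**Figure D2:**
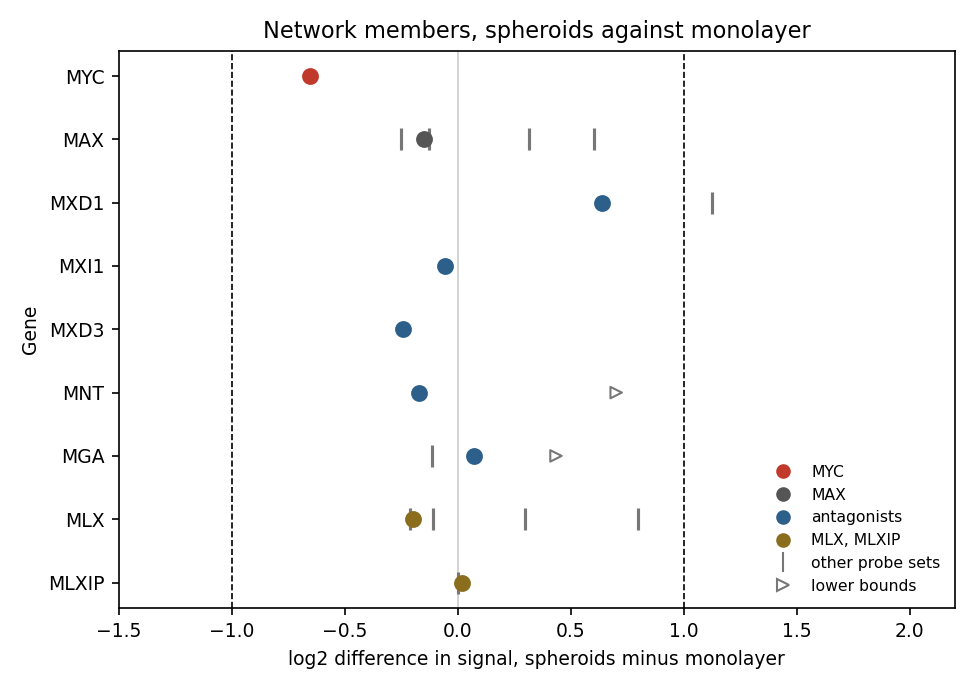
Log2 difference in signal, HT-29 spheroids minus monolayer, for the 9 measured members, 1 array per condition. Filled dots show the brightest probe set of each gene, grey ticks its other readings above the floor on both, open triangles lower bounds, and dashed lines mark 2-fold. MYC at -0.66 and MXD1 at 0.64 lie farthest from 0, and only the second MXD1 probe set, at 1.12, is beyond a dashed line.

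Of the 9 measured members 0 passed 2-fold upward in spheroids and 0 downward, where 2.53% of all measured genes were higher and 3.08% lower by that much. With 9 genes these shares come to less than 1 gene, so the count does not set the network apart. When each gene was read by its probe set of largest difference, 1 of the 9 was past 2-fold, MXD1, where 5.96% of all genes were higher and 5.4% lower by that much. The median log2 difference of the members was -0.15, beside -0.05 for all measured genes. Differences under 0.25 in size were found for 7 of the 9, and for 43.5% of all measured genes. Of the 27 probe sets assigned to a member alone 20 were above the floor on both arrays, 2 on 1 array and 5 on none. The 5 on none were set to the floor on both arrays and could not pass 2-fold. Among the 20 and the 2, 1 was at least 2-fold higher, the second of MXD1, and 0 were at least 2-fold lower. Over the 30141 probe sets above the floor on 1 or both arrays, 4.13% were higher and 2.92% lower by that much. The balance of calls moves with the scaling. Of all genes past 2-fold 45.1% were higher on the scale as deposited, 80.0% after scaling to the hybridisation spike-ins and 34.0% after median scaling. Scaling to the spike-ins moved the median of all genes to 0.19 and brought MAX, MXI1, MXD3, MNT and MLX from under 0 to above it, and median scaling brought MGA and MLXIP under 0. MYC stayed lower, at log2 differences from -0.73 to -0.39, and MXD1 higher, from 0.56 to 0.90, under each of the 4 other scalings.

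**Figure D3:**
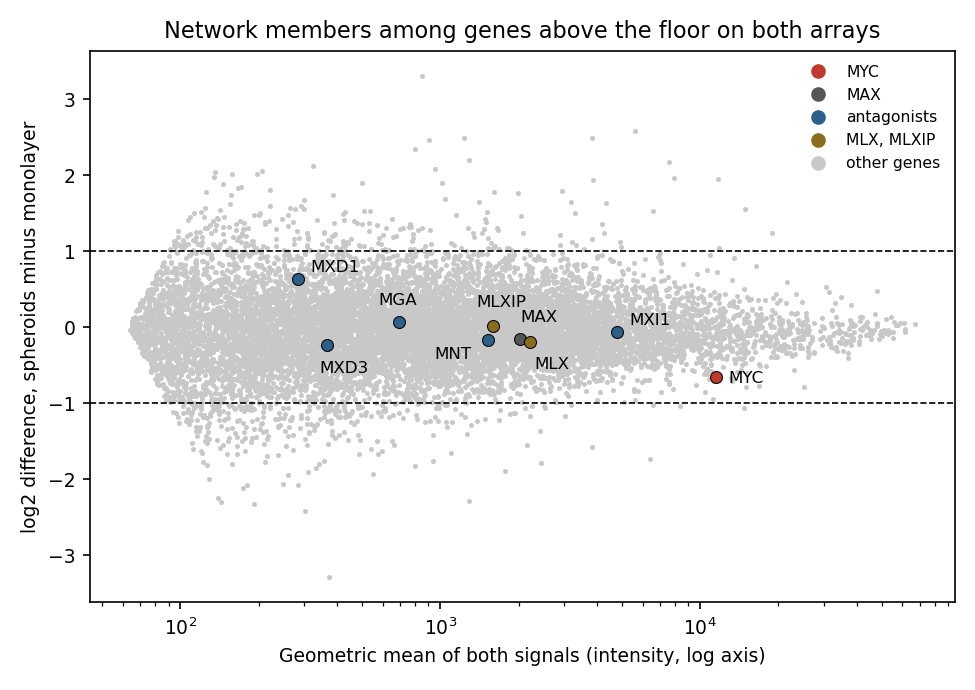
Log2 difference, HT-29 spheroids minus monolayer, against the geometric mean of both signals on a log axis, for the 11555 genes above the floor on both arrays (grey). The 9 measured members are coloured and named, and dashed lines mark 2-fold. MYC, at -0.66, lies low in the narrow band of bright genes, and 7 of the members lie within 0.25 of 0.

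MYC was then set against each antagonist by subtracting that gene's log2 difference from that of MYC, a measure that multiplying a whole array by a constant cannot move. It was under 0 for all 5 measured antagonists. Of all measured genes 90.7% had a higher difference than MYC, so this count does not set the antagonists apart. MYC minus MXD1 was -1.29, so that the ratio of MYC to MXD1 was 2.45-fold lower in spheroids, and with the second MXD1 probe set it was -1.78. MYC minus MGA was -0.73, minus MXI1 -0.60, minus MNT -0.48 and minus MXD3 -0.41. The last is as large as the SD between probe sets of one gene. Each of these values carries the error of both genes, so that SD is too small a yardstick for them. Against the median of the 5 antagonists MYC was at -0.60, and all 7 pairs of readings above the floor on each array gave values under 0, from -1.78 to -0.41. These pairs share the single MYC probe set. The sign for MXI1, MXD3, MNT and MGA rests on the lower MYC signal, since those genes were near level by their brightest probe sets. With the brightest shared probe set of MXD4 added, the median of 6 antagonists was -0.09 and MYC was at -0.57 against it.

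**Figure D4:**
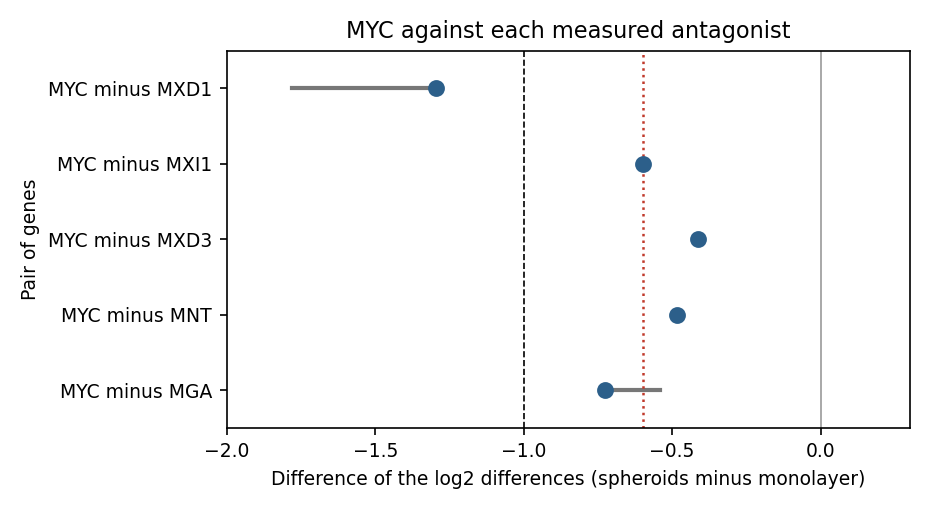
Log2 difference of MYC minus that of each measured antagonist, spheroids minus monolayer, by the brightest probe set of each gene (dots), with the range over pairs of probe sets (grey bars). The solid line marks 0, the dashed line a 2-fold lower ratio and the red dotted line the value against the antagonists' median, -0.60. All 5 dots lie left of 0, and only that for MXD1, at -1.29, is beyond the dashed line.

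Of the relatives outside the 10 genes, MYCL gave a larger difference than MYC. MYCL, the L-MYC gene, was at 193.4 in spheroids and 655.7 in monolayer, a log2 difference of -1.76 or 3.39-fold lower, and its other probe set was under the floor on both arrays. For MYCN all 10 probe sets were under the floor on both arrays. MLXIPL, the gene of the glucose-responsive factor ChREBP, was at 194.1 in spheroids and 174.0 in monolayer (log2 difference 0.16). MYC and MYCL were thus both lower in spheroids, and MYCL was past 2-fold.

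Genes of the complexes that carry out repression or activation for the network differed in both directions, by less than 2-fold. Over all measured genes 2.53% were at least 2-fold higher in spheroids and 3.08% lower. Of 15 measured genes of the SIN3 complex 0 passed 2-fold in either direction, and the median log2 difference was -0.09. ARID4B, a SIN3-associated protein, had the largest difference, at 3289 in spheroids and 1721 in monolayer (0.93), the ING family genes ING2 and ING1 were at 0.48 and 0.42, and HDAC1, the deacetylase of the complex, was at -0.42. Of 8 measured PRC1.6 genes 0 passed it, with a median of 0.14. CBX3, a heterochromatin protein, was at 0.60, RYBP at 0.52 and PCGF6, the subunit that defines this form of the complex, at 0.45, while E2F6 was at -0.39. Of 14 measured MYC cofactors 0 passed it and 11 were under 0, with a median of -0.20 beside -0.05 for all genes. Of all measured genes 54.5% had a log2 difference under -0.0025. The ATPases RUVBL1 and RUVBL2 were at -0.58 and -0.62 and HCFC1, a partner of WDR5 at chromatin, at -0.43. The MYC-binding WDR5 was at 0.74 by its brightest probe set and 0.20 by the other. After scaling to the spike-ins the medians of the SIN3 list and of the cofactors were above 0, at 0.18 and 0.06.
Of all measured genes 2.53% were at least 2-fold higher in spheroids and 3.08% lower. Among 11 measured genes that control MYC protein stability 1 was at least 2-fold higher and 0 lower. This was CIP2A, an inhibitor of the phosphatase PP2A that stabilises MYC, with signals of 846.3 in spheroids and 392.8 in monolayer, 2.15-fold higher. Its second probe set had a log2 difference of 1.09. The ubiquitin ligase gene STUB1 was at -0.82, with all 3 of its probe sets under 0, and PLK1, a mitotic kinase, at -0.85. SKP2, a ligase subunit, was at 0.42 by its brightest probe set and -0.72 by another. FBXW7 was at -0.20 by its brightest probe set, and its others above the floor on both arrays gave 1.08 and 0.19.

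Target genes of MYC did not share the size of its difference. Of 25 measured MYC-induced genes 0 passed 2-fold in either direction, where 2.53% of all measured genes were higher and 3.08% lower by that much. Of the 25, 17 were under 0, and of all measured genes 54.5% were under -0.0025. The median log2 difference of the 25 was -0.05, the same as that of all measured genes. AHCY, TFRC, SHMT2 and FKBP4 had the largest differences, at -0.58, -0.51, -0.45 and -0.43. Among the E-box targets, ODC1, CDK4 and LDHA were nearly level. ODC1, which starts polyamine synthesis, was at 25310 in spheroids and 26849 in monolayer. CDK4 was at 7196 in spheroids and 7137 in monolayer, and LDHA at 43830 in spheroids and 40080 in monolayer. The E-box targets with the largest differences were PPAT at 0.23 and SRM at -0.18. Single probe sets went past 2-fold in both directions. PTMA, the gene of prothymosin alpha, was at 43364 in spheroids and 39449 in monolayer by its brightest probe set and at 9926 in spheroids and 24637 in monolayer by the other, log2 differences of 0.14 and -1.31. E2F1, a cell cycle factor, was at 139.6 in spheroids and 132.4 in monolayer by one probe set and at 206.3 in spheroids and 64.7 in monolayer, near the floor, by the other, log2 differences of 0.08 and 1.67. The 9 targets with a CACGTG in the promoter window had a median of -0.04 and the 14 measured targets without it one of -0.06. Of 9 measured genes that MYC is known to repress 0 were at least 2-fold higher and 1 lower. Beside 2.53% and 3.08% of all measured genes, 1 of 9 does not set the list apart, and its median was 0.14. The gene past 2-fold was THBS1, an inhibitor of angiogenesis, at 94.8 in spheroids and 239.7 in monolayer. The cell cycle inhibitor CDKN2B was at -0.94, NDRG2 at -0.68, CDKN1A at -0.11 and CEBPA, a differentiation factor, at 0.41.
Of 4 measured Mondo and MLX targets 0 passed 2-fold, where 2.53% of all measured genes were higher and 3.08% lower by that much. HK2, a hexokinase that hypoxia also induces, was at 9509 in spheroids and 5158 in monolayer (0.88) by its brightest probe set. Its dimmer probe sets gave 0.38 and -0.18. PFKFB3 was at 0.17, TXNIP at 0.20 and ARRDC4, an arrestin relative of TXNIP, at -0.47. Of 15 proliferation genes 0 passed 2-fold in either direction, 8 were above 0 and 7 under it, and their median was 0.01. CDK1, the mitotic kinase, was at 0.63, with 3 of its 4 probe sets higher in spheroids. RRM2, a ribonucleotide reductase subunit, was at 0.36 by its brightest probe set and -0.15 by the other. The proliferation marker MKI67 was at -0.48 by its brightest, but 2 of its probe sets were higher and 2 lower, from -0.48 to 0.17. The cyclin gene CCNB1 was at -0.29 and -0.04. MCM6 was at 0.05 by its brightest probe set and 1.27 by the other.

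**Figure D5:**
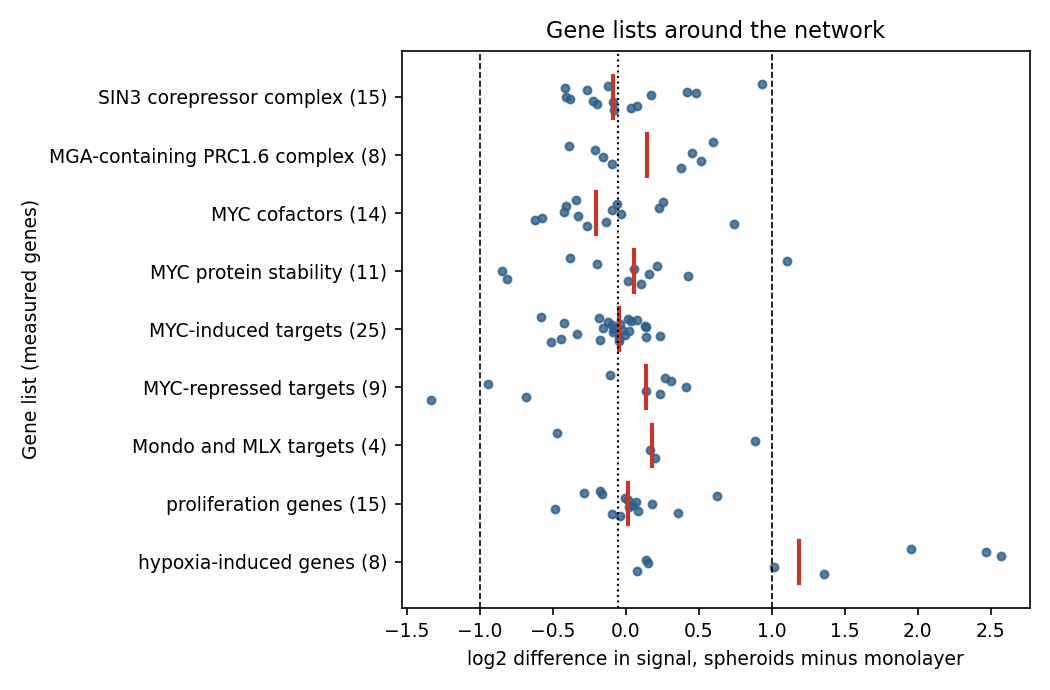
Log2 difference, HT-29 spheroids minus monolayer, of the measured genes (dots) in 9 gene lists, with the number measured in parentheses, their medians (red bars), the median of all measured genes (dotted line, -0.05) and 2-fold (dashed lines). The 25 MYC-induced targets lie between the dashed lines with a median of -0.05, and the hypoxia-induced genes have the median farthest to the right, 1.19.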

How the data were processed

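RNA was hybridised by the authors to Affymetrix U133 Plus 2.0 arrays, and Expression Console gave MAS5 signals. The deposited values are these signal intensities on a linear scale, without detection calls. Duplicates are named in the methods, but 1 array of each condition was used here.

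Probe sets were named through the platform annotation and the GRCh38.p14 RefSeq table. Of 54675 probe sets 41097 name 1 gene, 1801 name several and counted for none, and 11777 name none here. Signals under the 50th percentile were set to it before log2. Computations used Python 3.11.15, numpy 2.4.6, pandas 2.3.3 and matplotlib 3.10.9 and were checked on simulated data. The threshold was 2-fold. Named are all members, MYCN, MYCL, MLXIPL and, in each list, genes past 2-fold or up to 4 with the largest differences. Other genes, among them the E-box targets, PTMA, E2F1, CDKN1A and the markers, were named after their values were seen. The members and lists were chosen with earlier results of these data known. Alternatives were 4 scalings, 3 floor settings, a pseudocount of 15.9, 2 rules for the probe set and a 3-fold threshold.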

Additional observations from a re-analysis of the deposited data

How the results depend on the processing

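No paired analysis was possible because there was 1 array per condition, and no array could be left out. Reading each gene by its probe set of largest difference moved the median of the members to 0.43, MYC against the antagonists' median to -1.09 and the number of members past 2-fold to 1, MXD1. The number of genes past 2-fold in the lists around the network, 10 as reported, was then 20, and it was 22 without a floor, 20 with the pseudocount and 4 at 3-fold. MYC was under 0 in all 11 settings run, from -0.73 to -0.39, but this range comes from the 4 scalings alone. With 1 probe set far above each floor, MYC kept -0.66 under the floor settings, the pseudocount and the probe set rules, which could not test it. MXD1 was above 0 in the 10 settings that measured it. The floor at the 75th percentile, 386.0, left MXD1 under the floor on both arrays. MYC minus MXD1 lay between -1.78 and -1.20. MYCL was at -0.76 with that floor. MNT was at 0.26 by the median of its probe sets. With the floor of 89.2 from olfactory receptor probe sets, the dimmest MAX reading and that of MGA at 84.8 in spheroids were under it on both arrays, and the bound for MNT was 1.14-fold. Over all genes, 334 were higher and 406 lower by 2-fold as reported. The counts were 729 higher and 182 lower after scaling to the spike-ins, 100 and 74 for the floor raised to the 75th percentile, 2476 and 2502 without one, 1319 and 1397 with the pseudocount, 791 and 716 by the probe set of largest difference, and 52 and 60 at 3-fold.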

Other observations

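Among genes of the Wnt pathway that act on MYC, 0 of 5 measured genes passed 2-fold. Of all measured genes 2.53% were higher and 3.08% lower by that much. APC, which restrains the pathway, was at 1163 in spheroids and 956.2 in monolayer. CTNNB1, the gene of beta-catenin, was at 22157 in spheroids and 22068 in monolayer, AXIN2, a feedback target of the pathway, at 802.0 in spheroids and 791.9 in monolayer, and the brightest probe set of TCF7L2 at 23647 in spheroids and 26266 in monolayer. Of its 7 probe sets, all above the floor on each array, 6 had the lower signal in spheroids.
Of 10 intestinal differentiation genes 7 were under the floor on both arrays. KRT20, a keratin of mature colon cells, had 218.4 in spheroids and 99.6 in monolayer, 2.19-fold higher, and the carbonic anhydrase gene CA2 had 1246 in spheroids and 2758 in monolayer, 2.21-fold lower.
In the network, MAX, MLX and MNT had dim probe sets that were higher in spheroids beside bright ones that were lower. Over 5506 genes with more than 1 probe set past the floor on each array, the dimmest was above the brightest in log2 difference for 54.6%, with a median gap of 0.05.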
